A study of Bos taurus with 34 samples.

Results

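Fatty acid oxidation is the pathway by which liver cells shorten fatty acids to acetyl-CoA, and the expression of its genes was examined here in cattle liver that carried or lacked SLICK1, an allele of the prolactin receptor gene PRLR. The genes were taken by symbol from the authors' deposited comparison of slick with free liver. The 41 symbols of mitochondrial and peroxisomal fatty acid oxidation were all found there, as 42 of the 14161 distinct genes compared, because ACOT2 stands for 2 Ensembl genes. Presence in that table already required a measurable level, so the 42 genes are not a random draw from the pathway.

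The series holds 34 liver samples, all labelled Senepol, in 2 experiments. The TruSeq libraries came from daughters of the bulls Blanco and Lone Ranger, 10 with 1 copy of the allele (SLICK, 5 per bull) and 8 with 0 copies (FREE, of which 7 were sired by Lone Ranger and 1 by Blanco). The SMARTer libraries came from 5 animals with 1 copy (S1) and 11 with 2 copies (S2). No age, diet or treatment is given in the labels. Genotype and sire are partly confounded, since 1 of the 8 FREE daughters had Blanco as sire, and the sources used here do not give the terms of the authors' model. Genotype and sire therefore cannot be told apart in any value that follows. Library columns are named by animal numbers found in no sample label, so values per animal, depth per sample and S2 against S1 were not analysed here. Every fold change below comes from SLICK against FREE in the authors' deposited table, is given as a log2 ratio, and is read as higher in SLICK when positive. That direction rests on the name of the table and could not be checked against single libraries.

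Fatty acids are first joined to coenzyme A by acyl-CoA synthetases. Long-chain acyl groups then cross the mitochondrial membranes as carnitine esters, in the carnitine shuttle, and are shortened in the matrix by a repeated cycle of dehydrogenation, hydration, a further dehydrogenation and thiolysis. Peroxisomes run a parallel pathway for very long, branched and bile acid side chains, with oxidases in place of the first dehydrogenase. In ruminant liver the pathway is known for handling the fatty acids released from adipose tissue when energy is short, and it feeds ketone body synthesis. The 42 genes were divided by role into 3 acyl-CoA synthetases, 5 genes of the carnitine shuttle, 21 mitochondrial genes and 13 peroxisomal genes.

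Fatty acid oxidation genes leaned towards higher expression in SLICK liver by small amounts, and no single gene passed the threshold over all genes. Of the 42 genes, 41 had a log2 fold change above 0 in the authors' deposited table, where 48.2% of all genes did. The median of the 42 was 0.27 log2 units (1.21-fold), against -0.01 over all 14161 genes, and values ran from -0.33 to 0.52. With an unadjusted p under 0.05 as the bound, 23 of the 42 were higher in the authors' deposited table (54.8%), against 7.22% of all genes, and 0 were lower, against 8.79% of all genes. With 0.01 as the bound, 11 were higher, against 2.54% of all genes, and 0 were lower, against 3.82%. At an adjusted p under 0.05, 0 of the 42 were called in the authors' deposited table, against 0.501% of all genes, and the smallest adjusted p among them was 0.0761. The genes are measured in the same animals, so their common direction is not 42 separate observations.

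Expression level matters for reading these shares, because highly expressed genes leaned upward in general. Among the 1937 genes that averaged 6 or more on the log2 CPM scale, where CPM is a count scaled to the size of its library, 68.8% had a log2 fold change above 0 in the authors' deposited table, 21.5% were higher and 5.68% lower at an unadjusted p under 0.05, and 0.361% were called at the adjusted threshold. Of the fatty acid oxidation genes, 33 reached that level. All 33 had a log2 fold change above 0, 22 of them (66.7%) were higher and 0 lower at an unadjusted p under 0.05, and 0 were called at the adjusted threshold. Their median was 0.32, against 0.07 for the 1937 genes. When all genes were ordered by average level and cut into 10 equal bins, their median log2 ratio went from -0.10 in the lowest bin to 0.10 in the highest, and 30 of the 42 lay in the highest bin.

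**Figure D1:**
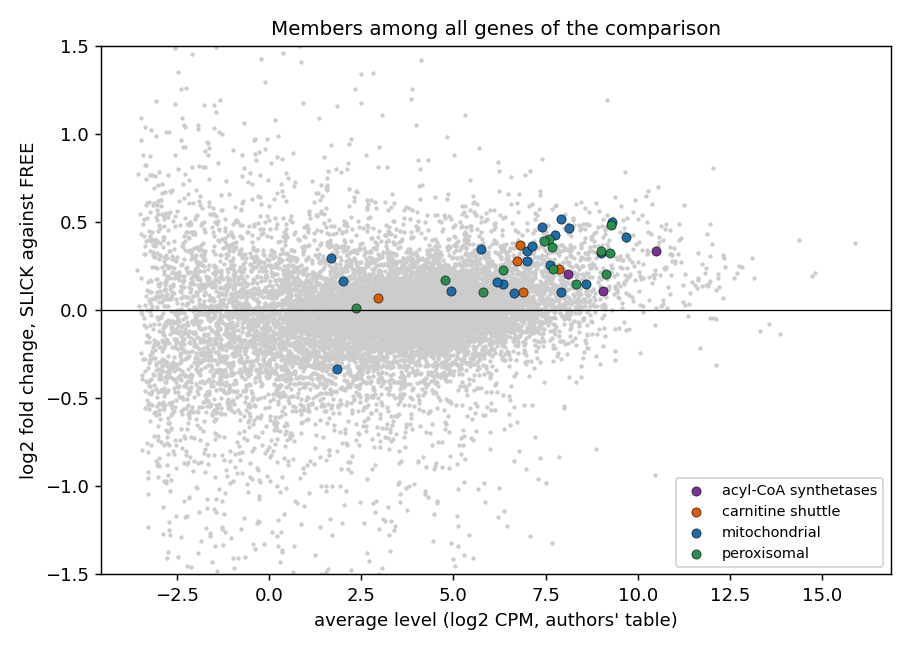
Log2 fold change of SLICK against FREE (vertical axis) against the average level in log2 CPM (horizontal axis), both from the authors' deposited table, for all genes (grey) and the 42 fatty acid oxidation genes (coloured by role). Genes beyond 1.5 log2 units in either direction (91 genes) are not drawn; 41 of the 42 coloured points lie above 0.

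Uncertainty was expressed as a 95% interval derived from the fold change and the F score of the authors' deposited table, an approximation that covers the spread between the animals the authors compared. By construction it lies wholly on one side of 0 exactly where the unadjusted p is under 0.05, so it adds no separate evidence of direction. The order of genes given below is an order of point estimates whose differences were not tested.

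**Figure D2:**
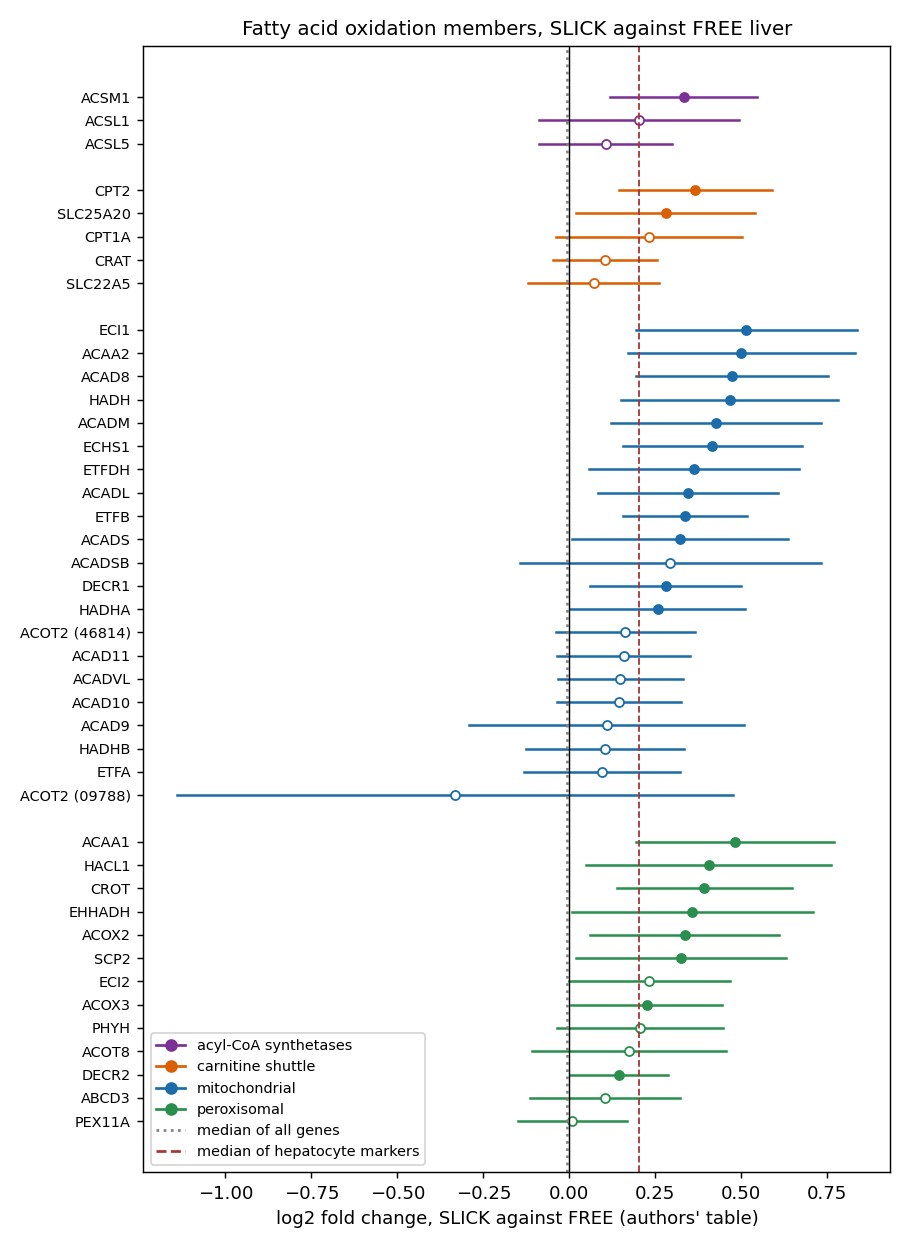
Log2 fold change of SLICK against FREE for each of the 42 genes, by role and in order of size, with 95% intervals derived from the F score of the authors' deposited table (filled points have an unadjusted p under 0.05). The dotted line is the median of all genes (-0.01) and the dashed line that of the hepatocyte markers (0.20); ACOT2 appears as 2 genes, told apart by the last digits of their identifiers.

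Acyl-CoA synthetases trap fatty acids in the cell as coenzyme A esters. ACSM1, which activates medium-chain acids in mitochondria, had a log2 ratio of 0.33 in the authors' deposited table (interval 0.12 to 0.55, p = 0.00413, adjusted p = 0.114). It lies on the + strand of chromosome 25, from 18233577 to 18298233 in ARS-UCD1.2 (ENSBTAG00000001417). The long-chain synthetases were nearer to 0, with log2 fold changes of 0.20 for ACSL1 (interval -0.09 to 0.49, p = 0.159) and 0.11 for ACSL5 (interval -0.09 to 0.30, p = 0.268) in the authors' deposited table. ACSM1 lies among other medium-chain synthetase genes, and of these the authors' deposited table gave 0.52 for ACSM2B, 0.29 for ACSM5 and 0.26 for ACSM3. Reads shared between such paralogs may make single values uncertain, which was not tested.

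In the carnitine shuttle the point estimates were largest at the inner mitochondrial membrane. CPT2, which returns acylcarnitine to acyl-CoA on the matrix side, had a log2 ratio of 0.37 in the authors' deposited table (interval 0.14 to 0.59, p = 0.00267, adjusted p = 0.101; chromosome 3, 93032987 to 93057118). SLC25A20, the translocase that exchanges acylcarnitine for carnitine, had 0.28 in the authors' deposited table (interval 0.02 to 0.54, p = 0.0363). CPT1A, the malonyl-CoA-sensitive enzyme of the outer membrane and the known control point of the pathway, had 0.23 in the authors' deposited table (interval -0.04 to 0.50, p = 0.0881; chromosome 29, 46164784 to 46225440). CRAT, which makes acetylcarnitine, had 0.10 (p = 0.163) and SLC22A5, the carnitine importer of the plasma membrane, had 0.07 (p = 0.444) in the authors' deposited table. All 5 were above 0, with a median of 0.23, and 2 of the 5 were higher at an unadjusted p under 0.05. That is 40.0%, against 7.22% of all genes and 21.5% of those at 6 log2 CPM or more.

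Mitochondrial genes had a median of 0.29, with 20 of 21 above 0 and 12 higher at an unadjusted p under 0.05. Those 12 were 57.1% of the group, against 7.22% of all genes and 21.5% of those at 6 log2 CPM or more. The smallest p of all 42 genes was that of ETFB, the beta subunit of the flavoprotein that takes electrons from the acyl-CoA dehydrogenases. ETFB had a log2 ratio of 0.34 in the authors' deposited table (interval 0.16 to 0.52, p = 9.30e-04, adjusted p = 0.0761), which is 1.26-fold. Its position is chromosome 18, 57407204 to 57436545, on the - strand (ENSBTAG00000020447). Its partner in the heterodimer, ETFA, had 0.09 in the authors' deposited table (interval -0.13 to 0.32, p = 0.391), and the intervals of the 2 subunits overlapped. ETFDH, which passes the electrons on to ubiquinone, had 0.36 in the authors' deposited table (interval 0.06 to 0.67, p = 0.0221).

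Acyl-CoA dehydrogenases open each round of the cycle and differ in the chain length they accept. ACADM, for medium chains, had a log2 ratio of 0.43 in the authors' deposited table (interval 0.12 to 0.73, p = 0.00868). ACADL, the long-chain enzyme, had 0.35 (p = 0.0122) and ACADS, the short-chain enzyme, had 0.32 (p = 0.0443) in the authors' deposited table. ACADVL, the membrane-bound enzyme for very long chains, had 0.15 there (interval -0.03 to 0.33, p = 0.103). These 4 enzymes, taken as the straight-chain group after seeing the values, thus ran from 0.15 to 0.43. At an unadjusted p under 0.05, 3 of the 4 were higher, beside 7.22% of all genes and 21.5% of those at 6 log2 CPM or more.

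The other members of this family were more mixed in the authors' deposited table. ACAD8, the isobutyryl-CoA dehydrogenase of valine breakdown, had the second smallest p of the 42 genes, with a log2 ratio of 0.47 in the authors' deposited table (interval 0.19 to 0.75, p = 0.00221, adjusted p = 0.0945; chromosome 15, 83525512 to 83539320). ACADSB, which acts in isoleucine breakdown, had 0.29 with a wide interval (-0.14 to 0.73, p = 0.176) in the authors' deposited table, at a low average of 1.68 log2 CPM. ACAD9, better known as an assembly factor of respiratory complex I, had 0.11 (p = 0.574) in the authors' deposited table. ACAD10 had 0.15 (p = 0.108) and ACAD11, counted here as mitochondrial, had 0.16 (p = 0.104) there. With ACAD11 and CRAT counted as peroxisomal, and ECI2 and PEX11A left out, the peroxisomal median was 0.23.

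Hydratase, hydroxyacyl-CoA dehydrogenase and thiolase complete the cycle, as soluble matrix enzymes for shorter chains and as the membrane-bound trifunctional protein for long chains. The soluble enzymes had the larger point estimates, a contrast drawn after seeing the values and not tested. ECHS1, the short-chain hydratase, had a log2 ratio of 0.42 in the authors' deposited table (interval 0.16 to 0.68, p = 0.00346, adjusted p = 0.109; chromosome 26, 25629515 to 25638721). HADH, the short-chain hydroxyacyl-CoA dehydrogenase, had 0.47 (interval 0.15 to 0.78, p = 0.00596) and ACAA2, the mitochondrial thiolase, had 0.50 (interval 0.17 to 0.83, p = 0.00501) in the authors' deposited table. HADHA, the trifunctional subunit with the hydratase and dehydrogenase activities, had 0.26 in the authors' deposited table (interval 0.0020 to 0.51, p = 0.0484). HADHB, the thiolase subunit, had 0.10 in the authors' deposited table (interval -0.13 to 0.33, p = 0.354).

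HADHA and HADHB lie head to head on chromosome 11, with HADHA on the + strand from 73256623 to 73298910 and HADHB on the - strand from 73226234 to 73256305, leaving 318 bases between them. Their average levels per kilobase of gene length were nearly the same, 68.3 CPM per kilobase for HADHA and 69.0 for HADHB, and the intervals of their fold changes overlapped.

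Auxiliary enzymes feed unsaturated fatty acids into the cycle. ECI1, the mitochondrial enoyl-CoA isomerase, had the largest log2 fold change of the 42 genes, 0.52 in the authors' deposited table (interval 0.19 to 0.84, p = 0.00328, adjusted p = 0.108), or 1.43-fold. Its position is chromosome 25, 1765090 to 1778389, on the - strand (ENSBTAG00000009965). DECR1, the mitochondrial dienoyl-CoA reductase, had 0.28 in the authors' deposited table (interval 0.06 to 0.50, p = 0.0151).

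ACOT2, a mitochondrial thioesterase that releases free fatty acids from acyl-CoA, held the one negative value. The gene ENSBTAG00000009788 (chromosome 10, 85013824 to 85030876) had a log2 ratio of -0.33 in the authors' deposited table with the widest interval of the 42 (-1.14 to 0.48, p = 0.400). The other ACOT2 gene, ENSBTAG00000046814 (84971509 to 84978751), had 0.16 in the authors' deposited table (interval -0.04 to 0.37, p = 0.108). They are 35073 bases apart, with the paralog ACOT4 between them, so reads shared between copies may make both values uncertain, which was not tested.

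Peroxisomal genes had a median log2 fold change of 0.23, with all 13 above 0 and 8 higher at an unadjusted p under 0.05. Those 8 were 61.5% of the group, against 7.22% of all genes and 21.5% of those at 6 log2 CPM or more. ACAA1, the peroxisomal thiolase, had a log2 ratio of 0.48 in the authors' deposited table (interval 0.19 to 0.77, p = 0.00243, adjusted p = 0.0977). The gene spans 11581703 to 11607351 on the - strand of chromosome 22 (ENSBTAG00000018283). EHHADH, the bifunctional hydratase and dehydrogenase of the straight-chain pathway, had 0.36 in the authors' deposited table (interval 0.01 to 0.71, p = 0.0460). CROT, which converts shortened chains to carnitine esters for export to mitochondria, had 0.39 in the authors' deposited table (interval 0.14 to 0.65, p = 0.00423, adjusted p = 0.115; chromosome 4, 33083035 to 33144192). ACOT8, a peroxisomal thioesterase, had 0.17 there (p = 0.214).

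Enzymes of branched chains and bile acid side chains were also above 0. ACOX2, the oxidase of bile acid intermediates and branched chains, had a log2 ratio of 0.34 in the authors' deposited table (interval 0.06 to 0.61, p = 0.0189), and ACOX3, another branched-chain oxidase, had 0.23 (p = 0.0448). SCP2, whose longer product is the thiolase of branched chains, had 0.33 in the authors' deposited table (interval 0.02 to 0.63, p = 0.0374; chromosome 3, 93275045 to 93393567). PHYH, the hydroxylase that starts alpha-oxidation of phytanic acid, a breakdown product of chlorophyll, had 0.21 (p = 0.0897) in the authors' deposited table. HACL1, the lyase that follows it, had 0.41 in the authors' deposited table (interval 0.05 to 0.76, p = 0.0280).

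The remaining peroxisomal genes were auxiliary enzymes, a transporter and a division factor. ECI2, the isomerase found mainly in peroxisomes, had a log2 ratio of 0.23 (p = 0.0506) and DECR2, the peroxisomal reductase, had 0.15 (interval 0.0031 to 0.29, p = 0.0457) in the authors' deposited table. ABCD3, the transporter of branched-chain and bile acid substrates, had 0.10 (p = 0.329) and PEX11A, which promotes peroxisome division, had 0.01 (p = 0.902) in the authors' deposited table. The isomerases ECI1 (0.52) and ECI2 (0.23), like the reductases DECR1 (0.28) and DECR2 (0.15), had the larger point estimate on the mitochondrial side, while the thiolases ACAA2 (0.50) and ACAA1 (0.48) were close, in the authors' deposited table. The intervals overlapped within each pair, and the differences were not tested.

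The median log2 ratios were 0.29 for the mitochondrial, 0.23 for the peroxisomal and 0.23 for the carnitine shuttle genes and 0.20 for the synthetases in the authors' deposited table. With the median of genes at a like average level subtracted, the shuttle had 0.13 and the synthetases 0.10, over 1.5 times less. The shares higher at an unadjusted p under 0.05 were 12 of 21, 8 of 13, 2 of 5 and 1 of 3, beside 7.22% of all genes and 21.5% of those of 6 log2 CPM or more. The differences between the groups were not tested.

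Average levels of the members spread 419-fold when expressed per kilobase of gene length, a scale on which genes can be compared. ACSM1 was highest, at 582 CPM per kilobase, followed by PHYH at 392, ECHS1 at 390, ACAA2 at 275 and ACADS at 238. The carnitine shuttle sat in the middle, with SLC25A20 at 58.6, CPT2 at 46.6, CRAT at 43.4 and CPT1A at 42.7 CPM per kilobase, and its plasma membrane importer SLC22A5 near the bottom at 1.93. The lowest were PEX11A (1.94), SLC22A5, ACADSB (1.69) and the 2 ACOT2 genes (2.24 and 1.39 CPM per kilobase). These are averages over both genotypes with no spread between animals given, so neighbours in the order cannot be told apart. Summed without correction for length, the 42 genes made up 1.08% of the average library, of which mitochondrial genes held 0.443% and peroxisomal genes 0.357%.

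**Figure D3:**
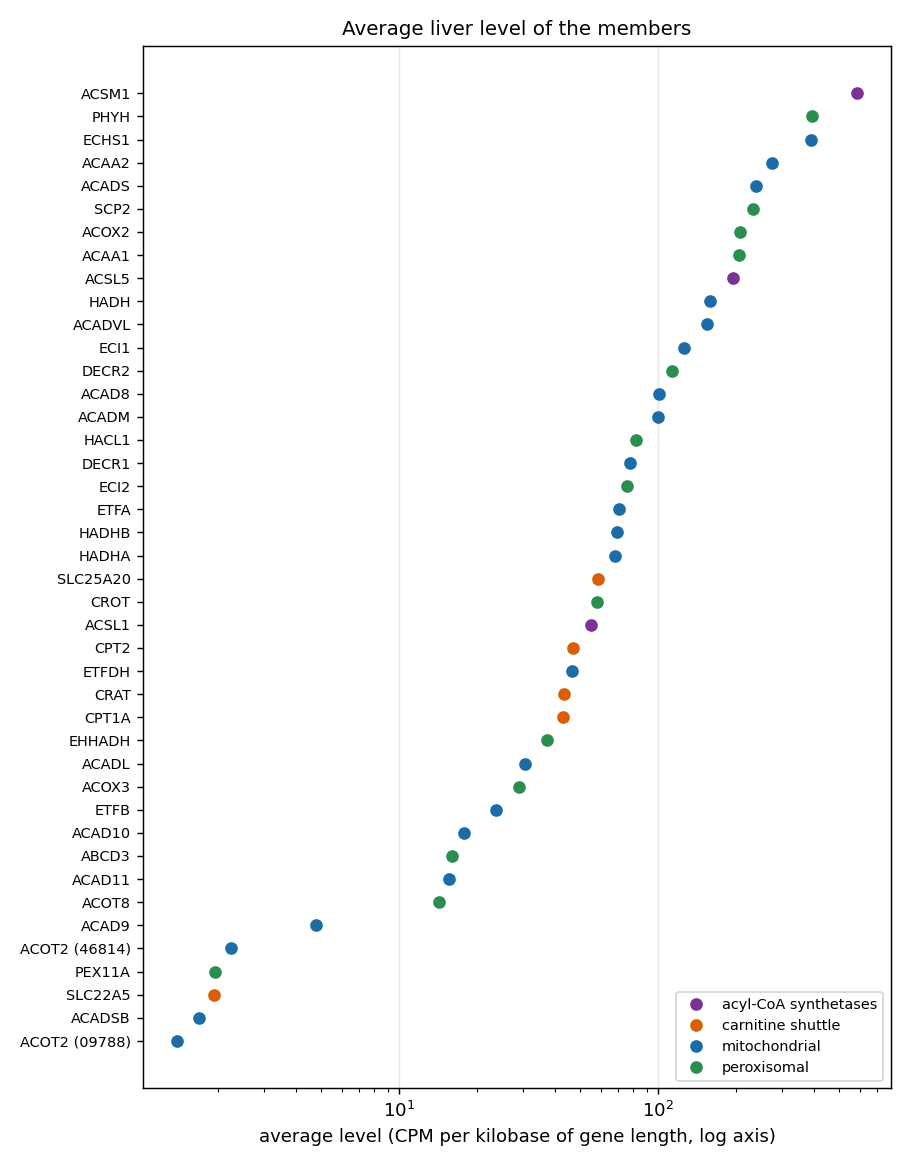
Average level of each gene, in CPM per kilobase of gene length on a log axis, computed from the average log2 CPM of the authors' deposited table and the deposited gene lengths, coloured by role. Levels run from 1.39 for an ACOT2 gene to 582 for ACSM1, with carnitine shuttle genes other than SLC22A5 between 42.7 and 58.6.

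Within the 42 genes the log2 fold change tended to be larger where the average level was higher (Spearman rho 0.46 across 42 genes that share the same libraries), compared with 0.22 across all 14161 genes. Against gene length the rho was -0.28. The genes lie on 22 chromosomes, with at most 4 on one, and 0 of them lie on chromosome 20, which carries PRLR. AMACR, an oxidation enzyme outside the 42, does lie on chromosome 20, from 39765282 to 39781002. It had a log2 ratio of 0.38 (p = 0.0408) in the authors' deposited table.

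Other genes that surround the pathway were described from 10 lists of known function, given here as counts and medians. None of their 151 measured genes was called at an adjusted p under 0.05 in the authors' deposited table, and 46 were higher (30.5%) and 9 lower (5.96%) at an unadjusted p under 0.05. Of all genes 7.22% were higher and 8.79% lower at that threshold, and of genes at 6 log2 CPM or more 21.5% and 5.68%, so the count of each list is read against these shares. Further oxidation enzymes outside the 42 had a median log2 fold change of 0.19 over 29 genes, at a median level of 4.63 log2 CPM. Of the 29, 19 were above 0 (65.5%) and 10 below. Over all genes 48.2% were above 0, and over those at 6 log2 CPM or more 68.8%. At an unadjusted p under 0.05, 10 of the 29 were higher (34.5%) and 1 lower (3.45%). The lower gene was ACOT9, with -0.44 (p = 0.00653) in the authors' deposited table. HSD17B10, a mitochondrial hydroxyacyl-CoA dehydrogenase, had 0.31 (p = 0.00395) and PECR, a peroxisomal enoyl-CoA reductase, had 0.38 (p = 0.00477) in the authors' deposited table. Propionyl-CoA genes, which carry odd-chain remnants and rumen propionate towards the citric acid cycle, had a median of 0.30, with all 7 above 0 and 6 higher at that threshold. MCEE, the methylmalonyl-CoA epimerase, had 0.30 (p = 0.00599) and PCCA, a subunit of propionyl-CoA carboxylase, had 0.35 (p = 0.00746) in the authors' deposited table.

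Uptake and binding genes were divided, with a median of 0.18 over 13 genes, 5 higher and 2 lower at an unadjusted p under 0.05. The fatty acid transporter SLC27A2 had a log2 ratio of 0.48 (p = 0.00991), whereas FABP5, the fatty acid binding protein of epithelial and myeloid cells, had -1.47 (p = 5.78e-04, adjusted p = 0.0649) in the authors' deposited table. Regulators had a median of 0.06 over 19 genes, with 4 higher (21.1%) and 0 lower. PPARA, the nuclear receptor that induces the pathway, had 0.30 (interval 0.06 to 0.54, p = 0.0158), and the fasting-induced factor CREB3L3 had 0.54 (p = 0.0238) in the authors' deposited table. Other known PPARA targets had a median of 0.11 over 9 genes, with 4 higher and 1 lower. PLIN5, which ties lipid droplets to mitochondria, had 0.68 (p = 0.00376) and CYP4A22, an omega-hydroxylase, had 1.68 (p = 0.00446) at an average of only -0.01 log2 CPM in the authors' deposited table.

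Fatty acid and triglyceride synthesis, the opposing pathway, had a median of -0.02 over 14 genes, with 2 higher (14.3%) and 1 lower (7.14%) at an unadjusted p under 0.05. ME1, the malic enzyme that supplies NADPH, had a log2 ratio of -0.70 (p = 0.00969) and AGPAT2, an acyltransferase of triglyceride synthesis, had 0.28 (p = 0.0221) in the authors' deposited table. Malonyl-CoA, the inhibitor of CPT1A, is made by ACACA and ACACB, which had 0.0023 and -0.03 in the authors' deposited table, with intervals from -0.42 to 0.42 and from -0.29 to 0.23. Ketone body synthesis had 3 of 5 genes higher and 1 lower, and ACAT1, an acetoacetyl-CoA thiolase, had 0.31 (p = 0.00987) in the authors' deposited table.

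Peroxisome biogenesis, citric acid cycle and mitochondrial import genes had medians below the 0.27 of the 42 genes. This did not hold for every neighbouring list, since the propionyl-CoA genes had 0.30 and ketone body synthesis had 0.24. Peroxisome biogenesis had a median of 0.15 over 18 genes, with 6 higher and 0 lower at an unadjusted p under 0.05 in the authors' deposited table. The citric acid cycle had a median of 0.14 over 18 genes, with 6 higher and 1 lower, and the authors' deposited table gave 0.40 (p = 0.00674) and 0.26 (p = 0.00872) for the succinate dehydrogenase subunits SDHC and SDHA. Mitochondrial import and channel genes had a median of 0.04 over 19 genes, with 0 higher and 2 lower at that threshold. TIMM17A had -0.31 (p = 0.0379) and TOMM40 had -0.14 (p = 0.0429) in the authors' deposited table. Of all genes, 7.22% were higher and 8.79% lower at that threshold. These lists were also expressed at lower levels than the 42 genes, whose median was 7.52 log2 CPM. Medians were 4.47 log2 CPM for peroxisome biogenesis, 6.69 for the citric acid cycle and 5.31 for import and channel genes.

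**Figure D4:**
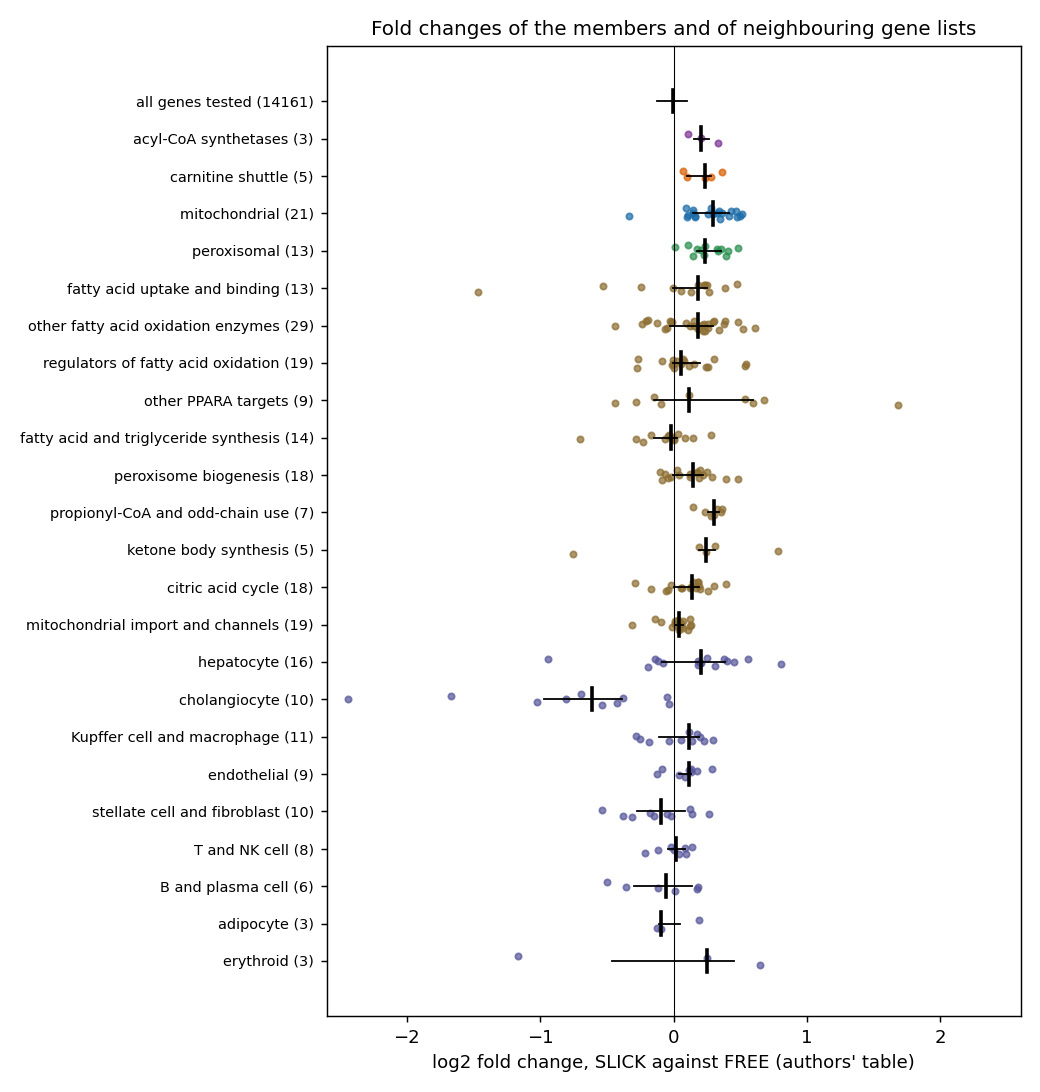
Log2 fold changes of SLICK against FREE from the authors' deposited table for each gene (points) of the 4 role groups, the surrounding pathway lists and the cell type marker lists, with the median (vertical bar) and quartiles (line); all genes are shown by median and quartiles alone, and the number of genes stands in brackets. The 4 role groups have medians of 0.20 to 0.29, near the hepatocyte markers (0.20) and above the mitochondrial import genes (0.04), while the cholangiocyte markers have a median of -0.61.

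Markers of other liver cell types and of hepatocytes were read in the same comparison, and 0 genes of any marker list were called at an adjusted p under 0.05, the smallest being 0.0599 in the cholangiocyte list of the authors' deposited table. Of 16 hepatocyte markers, 11 had a log2 fold change above 0 in the authors' deposited table. Over all genes 48.2% did, and over those at 6 log2 CPM or more 68.8%. At an unadjusted p under 0.05, 4 of the 16 were higher and 0 were lower. Of genes at 6 log2 CPM or more, 21.5% were higher and 5.68% lower, against 7.22% and 8.79% of all genes. The markers had a median of 0.20, against 0.07 for genes at 6 log2 CPM or more, and values from -0.94 to 0.81. Together the hepatocyte markers made up 16.1% of the average library, and ALB, the main plasma protein, had a log2 ratio of 0.38 in the authors' deposited table. The 5 below 0 were APOA1, FGA, FGB, FGG and HP. All 10 cholangiocyte markers compared were below 0, with a median of -0.61. At an unadjusted p under 0.05, 6 were lower (60.0%, against 8.79% of all genes), among them CLDN4 (-1.67), KRT7 (-1.03) and EPCAM (-0.69) in the authors' deposited table. Others were near 0 there, with -0.03 for KRT19 (p = 0.880) and -0.05 for ANXA4 (p = 0.628). The list summed to 334 CPM, or 0.0334% of the average library, of which ANXA4 alone held 281 CPM. Medians of the other lists with at least 6 genes were 0.12 for Kupffer cell and macrophage markers, 0.12 for endothelial, -0.10 for stellate cell and fibroblast, 0.02 for T and NK cell and -0.05 for B and plasma cell markers. Adipocyte and erythroid lists had 3 genes each compared, with medians of -0.09 and 0.25, and the adipocyte hormones ADIPOQ and LEP and all 5 skeletal muscle markers were not among the genes compared. Summed levels per group are not known, and the part of cell composition in the fold changes of the oxidation genes was not tested. In bulk tissue, fewer cells of a type and less RNA per cell cannot be told apart.

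The pathway was also set against the hepatocyte markers, an alternative chosen after seeing the data. Of the 42 genes, 27 had a log2 fold change above the hepatocyte median of 0.20 and 15 below it. That median lay inside the interval of 41 of them, but the intervals are wide, so this cannot tell whether a gene differs from the markers. The hepatocyte median was also taken as fixed, though its 16 markers ran from -0.94 to 0.81. The median of the 42 genes less the hepatocyte median was 0.067 log2 units.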

How the data were processed

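Liver RNA of cattle was sequenced from TruSeq (18 samples) or SMARTer (16 samples) libraries and grouped by the genotype and sire that the labels give. HISAT2 2.1.0, edgeR, Subread, featureCounts and the ARS-UCD1.2 build are listed, without roles, per the submitters' processing notes. Per the file headers, the SMARTer libraries were counted with featureCounts 1.6.2 on Ensembl release 100 gene models, with strand-aware counting of read pairs of mapping quality 10 or more.

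For slick against free the authors deposited a log2 fold change and a mean level in log2 CPM per gene, with the F score of their test, its p-value and the p-value after adjustment, per the file headers. Gene length and exon positions are other deposited values with no sample behind them. In all, 70 library columns in 4 tables are named by animal numbers that match no sample label, and were not used. The comparison and TruSeq count tables each name 18 animals, of which 17 are shared. Planned fits of single libraries could therefore not be made, and the depth of each sample was not used.

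The table has 14246 rows for 14161 genes, since 85 repeat a gene under a further symbol. The F score and p-value imply 18.7 denominator degrees of freedom in each of the 500 genes with the smallest p. The 95% interval was the fold change plus or minus the t quantile times its size divided by the square root of F, an approximation whose formula was tested on simulated normal values, not on simulated counts. Levels per kilobase are 2 to the average log2 CPM over the deposited length.

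The members and lists were chosen with earlier results of these data known. Groups within a role, such as straight-chain, soluble or branched-chain enzymes, were formed after seeing the values. All members could be named, with full values for the 4 smallest p per role and for negative values, and the 2 smallest p of each further list. Some genes that this rule took are not reported here. Adjusted p-values are the authors', over all their genes. No list was tested. The software was Python 3.11.15 with scipy 1.17.1, pandas 2.3.3, numpy 2.4.6 and, for the figures, matplotlib 3.10.9.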

Additional observations from a re-analysis of the deposited data

How the results depend on the processing

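At an unadjusted p under 0.01 in place of 0.05, 11 of the 42 genes were higher (2.54% of all genes) and 0 lower. Benjamini-Hochberg adjustment over the distinct genes, and leaving out genes under 2 log2 CPM, left 0 genes past an adjusted p of 0.05, and the smallest adjusted p was 0.0709 with the former. Of the 24 alternatives to the medians of log2 fold change, 0 changed the sign, 17 stayed within 1.5 times the reported value and 7 fell by more, a bound set after seeing the data. Of the 7, 5 subtracted the hepatocyte marker median, an alternative also chosen after seeing the data, which left 0.067 for all 42 genes, 0.030 for the carnitine shuttle, 0.092 for the mitochondrial genes, 0.031 for the peroxisomal genes and 6.46e-04 for the acyl-CoA synthetases. With the median of genes at a like average level subtracted (1 of 10 equal bins), the median of the 42 was 0.19, and that of the carnitine shuttle was 0.13, of the mitochondrial genes 0.22, of the peroxisomal genes 0.19 and of the synthetases 0.10. The shuttle and the synthetases are the other 2 of the 7.

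No paired analysis was possible because the library columns carry no sample label or replicate number, and for the same reason the planned fits that leave out each replicate were not run. Whether 1 animal carries any of these fold changes was not tested. The depth of single libraries is unknown here, and precision is given by the intervals alone.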
